A study of Mus musculus with 9 samples.

Results

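The replication-dependent histone genes encode the proteins that package newly copied DNA, and they are described here in embryonic mouse retina. Members are the rows of 2 deposited tables whose symbol starts with Hist1h, Hist2h, Hist3h or Hist4h. There are 51 such genes among the 12388 named genes of either table, all 51 in the mutant against heterozygote table and 49 in the knock-in against mutant table. By the class in the symbol, 5 encode the linker histone H1, 10 encode H2A, 16 encode H2B, 8 encode H3 and 12 encode H4. One of the H2B entries, Hist3h2bb-ps, is a pseudogene in the annotation. Of 70 gene symbols of the GENCODE M21 annotation that match the rule, the 51 listed ones were analysed.

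RNA was sequenced from retinas of CD-1 mice at E12.5 in 9 samples, 3 for each of 3 genotypes at Neurog2, a gene for a transcription factor that starts neurogenesis. Heterozygotes were Neurog2GFP/+, mutants were Neurog2GFP/GFP, and the knock-in group was Neurog2GFP/Mash1KI, so every group carried at least 1 GFP allele. Each sample was RNA of a pair of GFP-positive optic cups that had been dissociated into single cells; no cell sort is named, and optic cups hold more cell types than the neural retina. Group names below are those of the labels: the Neurog2 level (30.2, 36.2 and 112 RPKM in heterozygote, mutant and knock-in) does not check the loss of the coding part, because the tables do not separate it from the untranslated part. All 11 markers of retinal progenitors fixed for the tissue check were listed in both tables, with a summed level of 2570 RPKM in the heterozygote.

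The tables give 1 pooled value per transcript and group, as reads scaled to transcript length and library size (RPKM), which allows levels of different genes to be compared. They hold no value per sample, so no spread between samples can be shown, and the depth per sample is unknown. Every listed transcript reached 0.9065 RPKM (mutant against heterozygote) or 1.044 RPKM (knock-in against mutant) in at least 1 group. A single-transcript gene below that level in 1 group was therefore listed through the other, which fixed its direction. Error enters only through the authors' Cuffdiff test, whose q is adjusted over all transcripts of a table. A gene is called changed if any of its transcripts has a q of 0.05 or less. The labels number the samples apart but do not state separate animals or litters, so p-values cannot be taken to cover the spread between animals or litters. In bulk tissue, fewer cells of a type and less RNA per cell cannot be told apart.

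Replication-dependent histone genes are transcribed in S phase, and their messages are removed when DNA synthesis stops. Most lack introns, and most of their messages end in a short stem-loop rather than a poly(A) tail. Stem-loop binding protein holds that structure through processing, export and translation. At this age the retina consists largely of dividing progenitors, with the first ganglion cells leaving the cycle. The labels name the TruSeq RNA library kit; no source used here states whether poly(A) RNA was selected, so the values may cover only part of the histone messages.

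The stem-loop is the sequence feature that defines the group, and it is shown for members that the results turn on. The pattern GGNNCTTNTNANNGCC was searched on the sense strand of GENCODE M21 transcripts (GRCm38, which is the mm10 assembly the authors used). It was found in 34 of the 51 members and in 0.548% of all 21901 protein-coding genes. Capitals mark the stem and loop, and 5 flanking bases stand in lower case on each side.
Hist1h4d: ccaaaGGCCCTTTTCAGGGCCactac
Hist1h4c: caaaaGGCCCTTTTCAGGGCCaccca
Hist1h4a: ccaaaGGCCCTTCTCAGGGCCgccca
Hist1h2bh: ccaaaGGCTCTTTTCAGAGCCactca
Hist1h2ab: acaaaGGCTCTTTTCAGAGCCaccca
Hist1h1e: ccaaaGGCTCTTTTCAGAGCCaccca
Hist1h2bb: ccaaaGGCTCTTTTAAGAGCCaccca
Hist1h3g: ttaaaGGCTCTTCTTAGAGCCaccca

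The stem itself divided the classes. All 9 H4 members in which the pattern was found had a stem of GGCCC paired with GGGCC, and the 25 members of the other classes had GGCTC paired with GAGCC. The commonest core, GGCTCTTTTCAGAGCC, was found in 18 members of H1, H2A, H2B and H3. Among H4 members, 6 carried GGCCCTTTTCAGGGCC. The other 17 members include the pseudogene and genes such as Hist1h2ak and Hist1h2bl, whose annotated transcript is barely longer than its coding part.

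The members lie in clusters. In the authors' mm10 loci, 41 are in the Hist1 cluster on chromosome 13, in 3 groups at 21715763 to 21812147 (12 genes), 22035870 to 22043676 (4 genes) and 23531050 to 23764358 (25 genes). The Hist2 cluster on chromosome 3 (96196588 to 96279001) holds 6 members, Hist3 on chromosome 11 holds 3, and Hist4h4 stands alone on chromosome 6. Their coding sequences are alike enough that reads of one copy can match another. Of the 50 members with a coding sequence, 39 shared more than 50% of their coding words of 50 bases with another annotated gene, with a median of 72.4%. Hist1h4d shared 42.7% of its words and Hist1h2ak 57.5%, while Hist1h1a, Hist1h1b, Hist2h2be and Hist4h4 shared none. No source used here gives the read length or the handling of reads with several matches, so the split of reads among like copies is uncertain.

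A few genes carried most of the histone signal. Averaged over the 3 groups, levels ran from 0.710 to 369 RPKM with a median of 5.95 RPKM; 3 members were above 100 RPKM and 20 were below 5 RPKM. Hist1h4d, an H4 gene at chromosome 13, 23581598 to 23581990, was the most abundant and held 24.9% of the summed histone RPKM in the heterozygote, 29.5% in the mutant and 19.4% in the knock-in. The 5 most abundant, Hist1h4d, Hist1h2bm, Hist1h1e, Hist1h2bl and Hist1h2bb, together held 63.2%, 63.6% and 63.2%. Short gene models bear on these levels, since RPKM divides by a length that for many members covers the coding part alone.

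**Figure D1:**
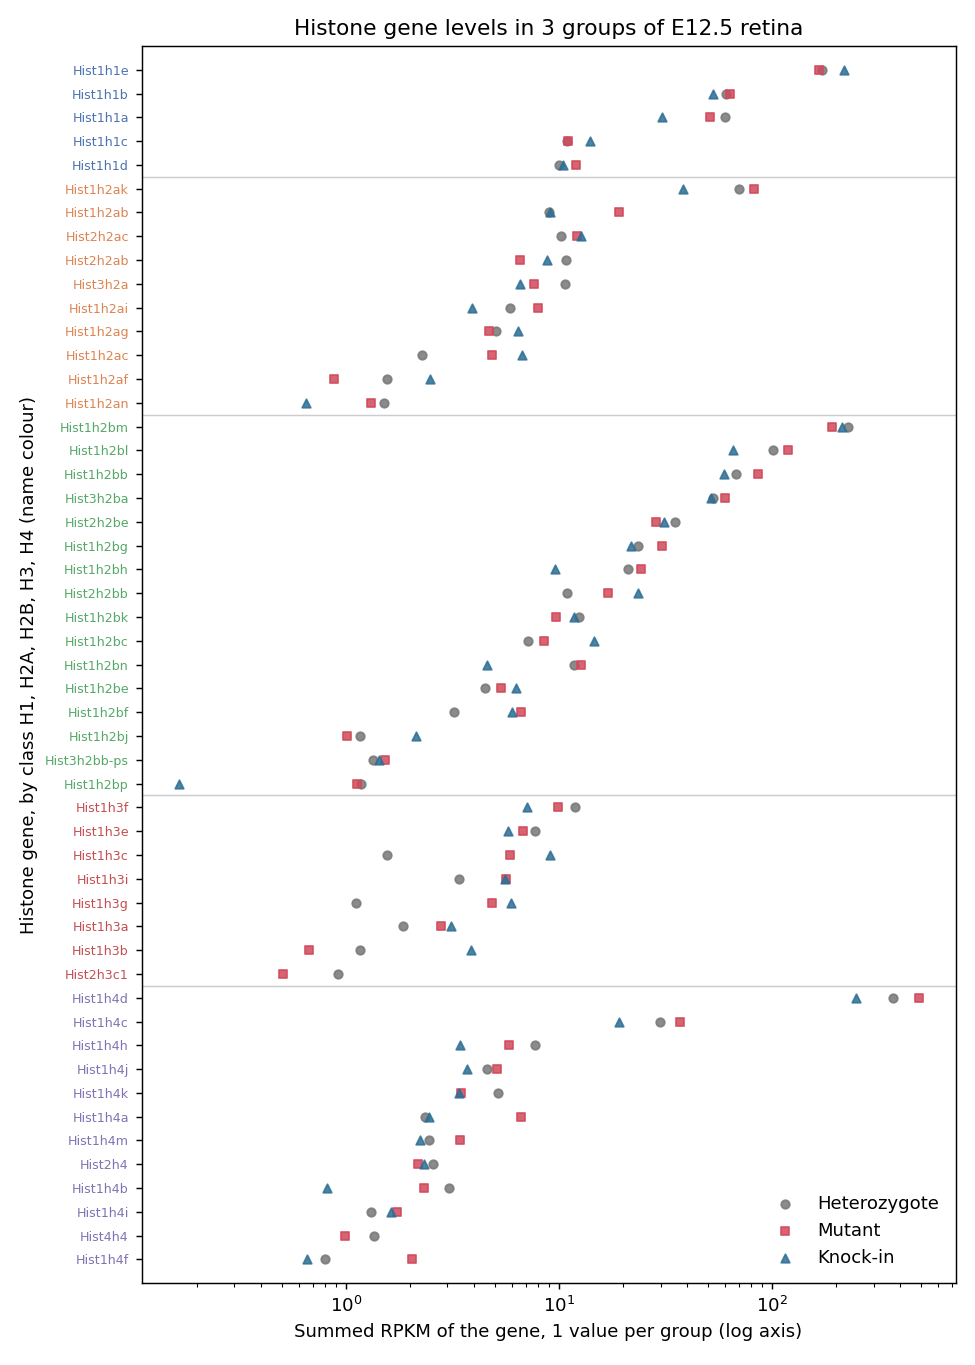
Summed RPKM of each of the 51 histone genes (log axis), 1 pooled value per group, with circles for the heterozygote, squares for the mutant (from the table with the heterozygote) and triangles for the knock-in; genes are grouped by class and ordered by mean level. In most H4 genes the triangle lies to the left of the square, as for Hist1h4d at 248 against 488 RPKM.

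Between mutant and heterozygote 1 histone gene was called changed. Hist1h2ab, which encodes H2A (chromosome 13, 23751126 to 23751598, single exon), stood at 9.01 RPKM in heterozygotes and at 19.1 RPKM in mutants. It rose 2.13-fold (q = 0.0494 in the authors' deposited table, Cuffdiff). That is 1 of 51 members, or 1.96%, where 0.245% of all 12247 genes were called higher and 1.34% in either direction. Of this gene's coding words, 71.9% are shared with other genes. No member was called lower by Cuffdiff, where 1.09% of all genes were. At an unadjusted p under 0.05, 7 members had higher values and 1, Hist3h2a, had a lower one, against 4.85% and 6.2% of all genes.

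The other low-p members of this comparison were from the H3, H4, H2A and H2B classes. Hist1h4a was at 2.35 and 6.66 RPKM (p = 0.0011, q = 0.124 in the authors' deposited table). Hist1h3c, which encodes H3, was at 1.57 and 5.89 RPKM (p = 0.00235, q = 0.202 in the authors' deposited table). The largest log2 ratio, 2.12, was that of Hist1h3g, at 1.12 and 4.86 RPKM (p = 0.0145, q = 0.569 in the authors' deposited table). These genes are all low in both groups and none passed the test. The abundant Hist1h4d had values of 370.2 and 488 RPKM (p = 0.00915, q = 0.445 in the authors' deposited table).

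Of the 51 members 30 were higher in the mutant, or 58.8%, where 54.6% of all genes were. Lower values came from all classes and clusters. Among members of at least 1 RPKM in either group, the lowest log2 ratios were -0.83 for Hist1h2af (1.56 to 0.881 RPKM), -0.79 for Hist1h3b (1.17 to 0.674 RPKM) and -0.71 for Hist2h2ab (10.8 to 6.57 RPKM). None passed the test, and the locus of Hist2h2ab overlaps that of Bola1. The 10 members of Hist2, Hist3 and Hist4 had a median log2 ratio of -0.27, with 6 lower and 4 higher. Hist2h3c1, which encodes H3, was at 0.915 and 0.506 RPKM and Hist4h4 at 1.36 and 0.986 RPKM. These 2 count among the 6 lower and were listed in this table only. Hist2h3c1, Hist1h2af and Hist1h3b were listed only through their heterozygote values, since every listed transcript reached 0.9065 RPKM in 1 group. The direction of these genes was thus fixed. The median over all 51 members was 0.19, beside 0.03 over all genes. Over members with at most 50% of their coding words shared with another gene it was also 0.03.

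By class, summed H4 was 431.6 and 558 RPKM in heterozygote and mutant, a log2 ratio of 0.37, or 0.20 without Hist1h4d. For H2A the sums were 127 and 148 RPKM and for H3 they were 29.6 and 37.1 RPKM. H2B stood at 581 and 604 RPKM and H1 at 314 and 303 RPKM. All 5 classes thus differed by less than 0.4 on the log2 scale; sums have no test.

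Between knock-in and mutant 5 histone genes fell and none was called higher by Cuffdiff. They encode H4 (Hist1h4d), H2A (Hist1h2ak), H2B (Hist1h2bl and Hist1h2bh) and the linker histone H1 (Hist1h1a). These are 10.2% of the 49 members, where 0.634% of all 11989 genes were called lower, 1.03% higher and 1.67% in either direction. At an unadjusted p under 0.05, 12 members were lower and 4 higher, against 6.46% and 8.56% of all genes.

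Hist1h4d fell from 479 RPKM in the mutant to 248 RPKM in the knock-in, a log2 ratio of -0.95 (q = 0.0104 in the authors' deposited table). That q is the smallest of this comparison and is shared by 128 transcripts. The knock-in value was also below the 370.2 RPKM of the heterozygote in the other table. Hist1h2ak (chromosome 13, 21753435 to 21753827) was at 81.2 RPKM in the mutant and fell to 38.3 RPKM, or -1.08 on the log2 scale, with q = 0.0104 in the authors' deposited table. Its heterozygote value was 70.4 RPKM. For both genes the knock-in was thus the lowest of the 3 groups and the mutant the highest.

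Hist1h2bl (chromosome 13, 21715763 to 21716143) dropped to 65.6 RPKM from 116 RPKM, with q = 0.0104 in the authors' deposited table, and stood at 100.7 RPKM in the heterozygote. Hist1h2bh (chromosome 13, 23542970 to 23543357) dropped to 9.62 RPKM from 23.9 RPKM, with q = 0.0463 in the authors' deposited table, and stood at 21.2 RPKM in the heterozygote. Hist1h1a (chromosome 13, 23763717 to 23764358) dropped to 30.5 RPKM from 50.3 RPKM, with q = 0.0104 in the authors' deposited table. Its heterozygote value of 60.5 RPKM was above the mutant value, unlike the other called genes. Hist1h1a is the called member with no coding word shared with another gene.

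Further H4 and H2A genes lay below the mutant without passing the test. Hist1h4c, also H4, was at 36.2 and 19.1 RPKM (q = 0.0636 in the authors' deposited table). Hist1h2ab, the gene that was higher in the mutant, was at 18.8 RPKM there and at 9.06 RPKM in the knock-in (q = 0.0767 in the authors' deposited table), close to its heterozygote value of 9.01 RPKM. Hist1h4h, next in level among H4 genes, was at 5.72 and 3.44 RPKM, and Hist1h4a at 6.54 and 2.47 RPKM (p = 0.101 and 0.0045 in the authors' deposited table). The mutant samples enter both comparisons, so the higher values there and the lower ones here are not independent.

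The largest negative ratios were those of low genes. Hist1h2bp was at 1.11 and 0.164 RPKM, Hist1h4f at 2.01 and 0.660 RPKM and Hist1h4b at 2.27 and 0.814 RPKM, with p of 0.242, 0.0775 and 0.303 in the authors' deposited table. At the other end, Hist1h3b was at 0.661 and 3.87 RPKM, a log2 ratio of 2.55 (p = 0.00775, q = 0.31 in the authors' deposited table). Hist1h2af had a log2 ratio of 1.52 (0.865 and 2.48 RPKM) and Hist1h2bj one of 1.10 (0.997 and 2.14 RPKM), with p of 0.292 and 0.158 in the authors' deposited table. At levels near 1 RPKM, ratios of this size did not pass the test. Each of these genes was under 1.044 RPKM in 1 group. It was thus listed only through the other group, which fixed its direction.

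Other abundant histone genes were not called, and they lay on both sides of the mutant. Hist1h1e, a linker histone gene and the most abundant H1 gene, was at 172 RPKM in the heterozygote, 166 RPKM in the mutant and 219 RPKM in the knock-in (p = 0.00335, q = 0.189 for knock-in against mutant in the authors' deposited table). Hist1h2bm, the most abundant H2B gene, was at 226.7, 192 and 214 RPKM in the same order. Hist3h2ba and Hist2h2be, H2B genes outside Hist1, were at 52.8, 60.2 and 51.6 RPKM and at 35.02, 28.5 and 31.3 RPKM. The less abundant Hist1h2bc, an H2B gene whose locus spans 8290 bases, was at 7.18, 8.47 and 14.6 RPKM (q = 0.0918 for knock-in against mutant in the authors' deposited table). Hist1h1b, another H1 gene, was at 60.8, 63.5 and 53.1 RPKM. Hist1h2bb, the fifth in level, was at 67.7, 85.8 and 59.6 RPKM (p = 0.0057 for knock-in against mutant in the authors' deposited table). Hist1h1e, Hist1h2bm and Hist2h2be were thus above the mutant in the knock-in, and Hist1h2bb, Hist1h1b and Hist3h2ba below it. Of the 12 members averaging 20 RPKM or more, 9 were lower in the knock-in than in the mutant and 4 were called.

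By class, H4 had the lowest median in this comparison. Of 11 H4 genes 10 were lower in the knock-in, where 50.3% of all genes were, with a median log2 ratio of -0.73. Hist1h4d was the one called. Among the lower ones, Hist1h4f and Hist1h4b were under 1.044 RPKM in the knock-in and listed only through the mutant, which fixed their direction. Hist1h4k and Hist1h4i were nearly level, with log2 ratios of -0.006 and -0.06. Summed H4 went from 547 to 288 RPKM, and its share of all histone RPKM from 33.8% to 22.6%. Most of both sums is Hist1h4d (479 and 248 RPKM). Without that gene the H4 log2 ratio of sums was -0.785 in place of -0.93. Summed H2A went from 145 to 95.5 RPKM and H2B from 592 to 524 RPKM, with 5 of 10 and 9 of 16 genes lower. Without Hist1h2ak the H2A log2 ratio was -0.17 in place of -0.61. H3 went from 35.9 to 40.5 RPKM, with 2 of 7 genes lower; its 2 most abundant genes, Hist1h3f (9.69 and 7.12 RPKM) and Hist1h3e (6.67 and 5.76 RPKM), were those 2. H1 went from 298 to 327 RPKM, but from a log2 ratio of 0.13 to one of -0.32 without Hist1h1e. Of all 49 members 20 were higher in the knock-in, where 49.7% of all genes were, and the median log2 ratio was -0.17, beside 0.00 over all genes (-0.0021 before rounding). H4 genes share from 0% (Hist4h4, in the other table only) and 6.15% (Hist2h4) to 100% (Hist1h4m) of their coding words with other genes, so values of the most alike may not be independent. No test of a class was made.

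**Figure D2:**
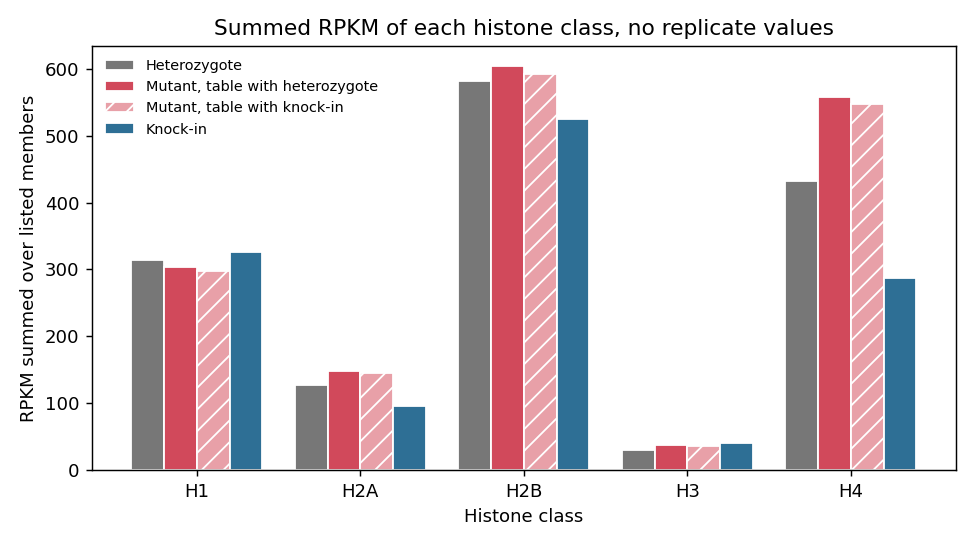
RPKM summed over the listed members of each histone class (bars from 0) in the heterozygote, in the mutant as given by each of the 2 tables, and in the knock-in; there are no replicate values and so no error bars. H4 goes from 547 to 288 RPKM between mutant and knock-in, while H1 and H3 are higher in the knock-in.

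**Figure D3:**
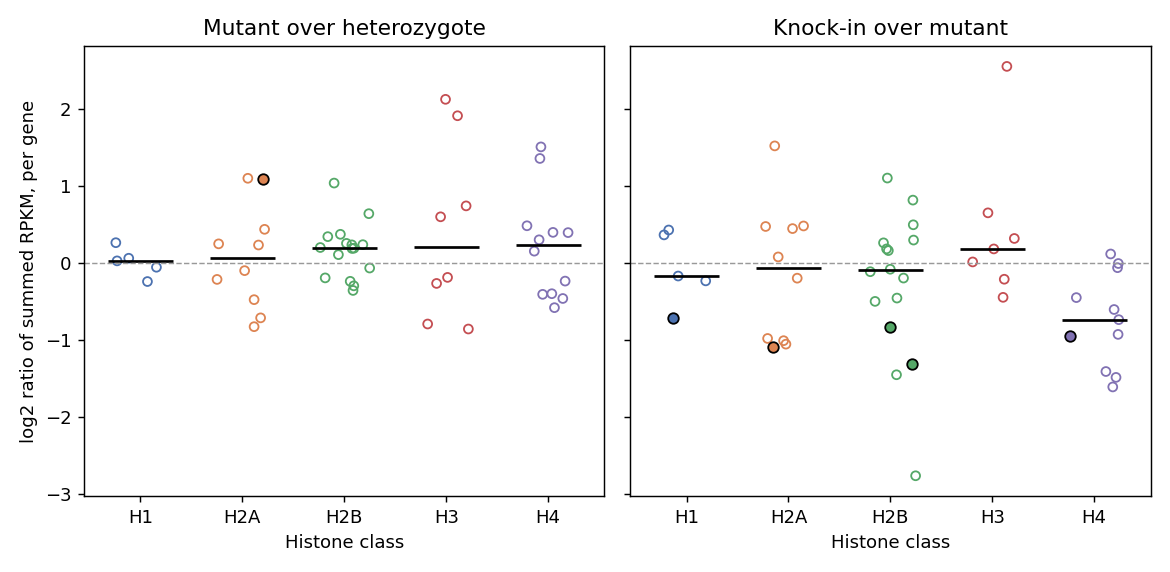
Log2 ratio of summed RPKM for each member by class, mutant over heterozygote on the left and knock-in over mutant on the right; filled points are genes called at a q of 0.05 or less, black lines are class medians, and horizontal scatter within a class has no meaning. The H4 median is 0.23 on the left and -0.73 on the right, and 1 and 5 points are filled.

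Along chromosome 13 the median ratio of knock-in over mutant differed by stretch. In the first group of Hist1 genes 10 of 12 were lower in the knock-in than in the mutant, with a median log2 ratio of -0.71. In the group of 4, 1 was lower and the median was 0.39. In the third group 15 of 25 were lower, with a median of -0.21. Over all genes 50.3% were lower, and over all 49 members 59.2%, which the third group is close to. By summed RPKM the third group was the lowest, with log2 ratios of -0.31, 0.38 and -0.45 in chromosome order. Some directions were fixed by the listing at 1.044 RPKM. These were Hist1h2an and Hist1h2bp in the first group, Hist1h2bj in the group of 4, and Hist1h2af, Hist1h3b, Hist1h4b and Hist1h4f in the third. All 5 called genes are in the first or the third group, which together hold all Hist1 genes but the group of 4. The 5 Hist2 genes of this table were all higher (median 0.16), and the 3 Hist3 genes were all lower (median -0.20), none of them called.

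**Figure D4:**
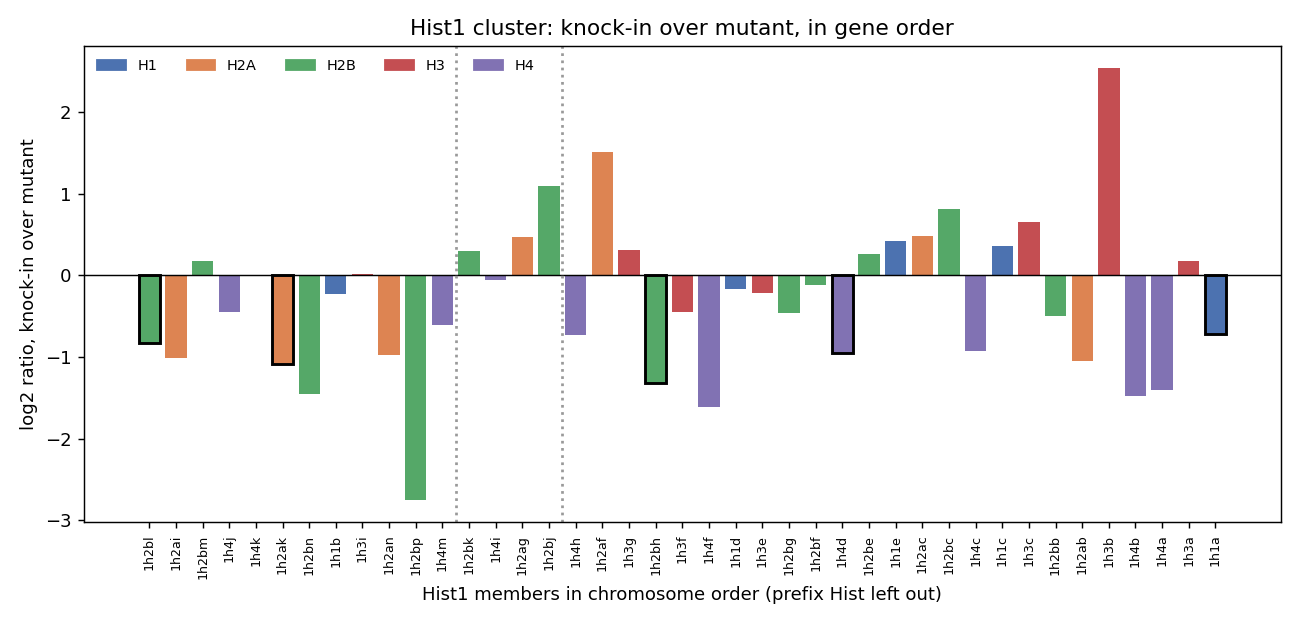
Log2 ratio of summed RPKM, knock-in over mutant, for the 41 Hist1 genes in chromosome order, not to scale, with colours for the class, black outlines for called genes and dotted lines between the 3 groups of genes. The first group holds 10 bars below 0 and 2 above, and the 4 genes of the middle group include 3 above 0.

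Several H2A and H2B genes stand head to head, with less than 1000 bases between their loci. In the first Hist1 group 3 such pairs had lower values in the knock-in on both sides. Hist1h2bl fell and its partner Hist1h2ai was at 7.87 and 3.91 RPKM (p = 0.0355 in the authors' deposited table). Hist1h2ak fell and its partner Hist1h2bn was at 12.49 and 4.57 RPKM (p = 0.0059, q = 0.263 in the authors' deposited table). Hist1h2an and Hist1h2bp form the other pair, both near 1 RPKM, with log2 ratios of -0.98 and -2.76. In the middle group Hist1h2ag and Hist1h2bj went the other way, with log2 ratios of 0.47 and 1.10, as did Hist1h2ac and Hist1h2bc in the third group, with 0.48 and 0.82. Hist2h2ac, an H2A gene at 11.99 and 12.7 RPKM, and Hist2h2be had 0.08 and 0.16, and Hist3h2bb-ps and Hist3h2a had -0.08 and -0.20. Partners thus had the same sign in all 7 pairs between knock-in and mutant, and only Hist1h2bl and Hist1h2ak among them were called. Some of these signs were fixed by the listing at 1.044 RPKM. Hist1h2an and Hist1h2bp, at 0.653 and 0.164 RPKM in the knock-in, were listed only through the mutant. Hist1h2bj, at 0.997 RPKM in the mutant, was listed only through the knock-in. Between mutant and heterozygote 2 of the 7 pairs had opposite signs: Hist2h2ac 0.25 with Hist2h2be -0.30, and Hist3h2bb-ps 0.19 with Hist3h2a -0.48.

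The stretch between the RefSeq starts of 3 of these pairs is shown because it lies upstream of both partners. Sequences are from RefSeq on GRCm38.p6, plus strand, and capitals mark the word CCAAT on either strand, a box found in many histone promoters and bound by the factor NF-Y. The stretches are chr13:21716184-21716411 for Hist1h2bl and Hist1h2ai, chr13:21753913-21754075 for Hist1h2ak and Hist1h2bn, and chr13:22042950-22043197 for Hist1h2ag and Hist1h2bj. They hold 4, 3 and 5 copies of the word.
Hist1h2bl and Hist1h2ai: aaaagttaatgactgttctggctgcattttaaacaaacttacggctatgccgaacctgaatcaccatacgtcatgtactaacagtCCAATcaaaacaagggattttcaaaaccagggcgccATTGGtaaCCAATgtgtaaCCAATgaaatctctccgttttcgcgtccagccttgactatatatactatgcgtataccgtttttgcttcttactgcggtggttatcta
Hist1h2ak and Hist1h2bn: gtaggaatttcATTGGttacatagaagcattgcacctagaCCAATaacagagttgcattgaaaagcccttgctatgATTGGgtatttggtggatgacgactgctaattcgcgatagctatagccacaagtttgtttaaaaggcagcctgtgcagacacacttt
Hist1h2ag and Hist1h2bj: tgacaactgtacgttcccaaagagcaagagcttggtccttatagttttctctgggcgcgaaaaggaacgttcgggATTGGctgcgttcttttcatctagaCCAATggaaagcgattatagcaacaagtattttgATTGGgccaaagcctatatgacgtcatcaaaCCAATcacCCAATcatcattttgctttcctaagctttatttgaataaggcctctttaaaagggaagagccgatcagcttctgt

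Promoter words differed in frequency between the classes. RefSeq windows from 250 bases before to 50 after the start were matched for 45 members, through older symbols. CCAAT was present in the windows of all 5 H1, 10 H2A, 13 H2B and 6 H3 genes but of 3 of 11 H4 genes (Hist1h4a, Hist1h4c and Hist1h4d), where 37.4% of all 32851 windows of this length hold it. The octamer ATTTGCAT, which Oct1 binds in H2B promoters, was in 4 H2A and 6 H2B windows, among them those of Hist1h2bb and Hist1h2bm, and in 1.74% of all windows. The word AAACACA, known from H1 promoters, was in 4 of 5 H1 windows, all but that of Hist1h1a, in those of Hist1h2ab (H2A) and Hist1h2bm (H2B), and in 7.18% of all windows. TATAAA was in 26 of 45 windows and in 13.6% of all. All 4 words were searched on both strands, and no 2 of them overlapped. Members without a window are Hist1h2bc, Hist1h3a, Hist1h3f, Hist2h2be, Hist2h4 and Hist3h2bb-ps.

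The authors' gene models end at different points relative to the stem-loop, and the members were set side by side by that end, a split chosen after the values were seen. In 11 members the locus covers little more than the coding part or stops before the stem-loop; 8 were lower in the knock-in than in the mutant, with a median log2 ratio of -0.83, and 4 of the 5 called genes are among them. In 19 members it ends within 60 bases past the stem-loop; 10 were lower, Hist1h4d was called, and the median was -0.11. In 10 members of this table it runs further past the stem-loop. Of these 7 were lower, none was called by Cuffdiff, and the median was -0.20. The log2 ratios of summed RPKM were -0.37, -0.43 and -0.175 for these sets in the same order. Over all 49 members that ratio was -0.34. The order of the sets by sums thus differed from that by medians. Over all genes 50.3% were lower, and over all 49 members 59.2%, so the 10 of 19 lie near those shares. Of those 10, Hist1h1c (10.9 and 14.01 RPKM) had an unadjusted p of 0.04 in the authors' deposited table. The remaining 9 could not be placed, for want of an annotated stem-loop.

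Replacement and variant histone genes, which the symbol rule leaves out, were examined for comparison. Of 11 replacement and variant histone genes, none was called between mutant and heterozygote by Cuffdiff, nor did any reach an unadjusted p of 0.05, and their median log2 ratio was 0.16. Between knock-in and mutant 1 of the 11 rose, where 1.03% of all genes were called higher. This was H2afx, whose protein is phosphorylated at DNA breaks. H2afx was at 158 RPKM in the mutant and at 225.5 RPKM in the knock-in, with q = 0.032 in the authors' deposited table. H2afz, the most abundant, was at 4561 and 3583 RPKM, and H3f3a, which encodes a replacement H3 and had the lowest ratio, at 1093 and 607 RPKM (q = 0.213 in the authors' deposited table). H1fx, a linker histone gene, had the highest log2 ratio, 0.66 (7.65 and 12.1 RPKM).

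Genes that make, process and remove histone messages showed no call in either comparison by Cuffdiff. Of 18 measured, none had an unadjusted p under 0.05 between mutant and heterozygote, and 2 did between knock-in and mutant, both higher. At that p, 4.85% of all genes were higher and 6.2% lower between mutant and heterozygote. Between knock-in and mutant the shares were 8.56% and 6.46%. Slbp, which encodes the stem-loop binding protein, was at 91.2 RPKM in the heterozygote, 91.8 RPKM in the mutant and 91.4 RPKM in the knock-in. Npat, the coactivator of histone transcription, was at 16.7, 13.75 and 15.96 RPKM. Snrpg and Snrpe, which encode core proteins of small nuclear RNPs, were the most abundant of the list; Snrpe had the highest log2 ratio in the knock-in, 0.48 (341 and 476.5 RPKM). The lowest there was that of Sympk, a scaffold of the 3′ processing complex, at -0.23. Of 18 histone chaperones and related genes none was called either, with 1 at an unadjusted p under 0.05 between mutant and heterozygote (Daxx, 43.6 and 58.8 RPKM) and none between knock-in and mutant. Nap1l1 and Nasp, the most abundant, were at 598 and 614 RPKM and at 362 and 404 RPKM in heterozygote and mutant.

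Of 37 measured S phase genes none was called by Cuffdiff in either comparison. Between mutant and heterozygote 33 were higher in the mutant, where 54.6% of all genes were, with a median log2 ratio of 0.24. At an unadjusted p under 0.05, 10 were higher and 1 lower, against 4.85% and 6.2% of all genes. Between knock-in and mutant 29 were lower, where 50.3% of all genes were, with a median of -0.17. At that p 6 were lower and 1 higher, against 6.46% and 8.56% of all genes. Pcna, the sliding clamp of DNA replication, was at 368 and 410.1 RPKM in heterozygote and mutant, and at 402 and 429 RPKM in mutant and knock-in. Pold1, the catalytic subunit of a replicative polymerase, had the highest ratio in the mutant (43.6 and 65.8 RPKM, log2 0.59), and Pole, that of another, the lowest in the knock-in (23.97 and 16.6 RPKM, log2 -0.53). The S phase median in the knock-in, -0.17, equals that of all histone members to 2 decimals. Summed RPKM in mutant and knock-in was 2836 and 2565 for S phase genes, and 1618 and 1275 for histone members. Whether the 2 sets changed alike was not tested. By class the histone medians were -0.17 for H1, -0.06 for H2A, -0.10 for H2B, 0.18 for H3 and -0.73 for H4.

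Other features also differed between the groups. Progenitor markers were higher in the mutant in 11 of 11 genes (summed 2570 and 3122 RPKM) and were at 3063 and 2995 RPKM in mutant and knock-in. Markers of ganglion cells and neurons were lower in the mutant in 11 of 11 (933 and 458.5 RPKM, 8 called) and higher in the knock-in in 11 of 11 (449 and 603 RPKM, 1 called). In the knock-in, 8 of 8 pigment epithelium markers (18.9 and 89.98 RPKM), 7 of 8 lens markers (56.5 and 151 RPKM), 6 of 6 blood markers (34.3 and 128 RPKM) and 5 of 5 markers of periocular mesenchyme (18.9 and 31.8 RPKM) were higher than in the mutant. These are the listed genes of lists of 9, 9, 8 and 8. Markers under 1.044 RPKM in the mutant, such as Tyrp1 and Mitf, were listed only through the knock-in. Their direction was thus fixed, and the counts are partly set by the listing. The lens marker Foxe3 was listed at 0 in the mutant and at 1.05 RPKM in the knock-in. Endothelial and macrophage markers, with 2 of 5 and 1 of 4 listed, were lower in the knock-in (29.5 and 24.01 RPKM, and 4.74 and 3.61 RPKM). The immediate early gene Fos was at 13.7 RPKM in the heterozygote, 32.4 RPKM in the mutant and 0.536 RPKM in the knock-in, and Egr1 and Fosb were also lower in the knock-in (31.8 and 1.03 RPKM, 14.8 and 0.421 RPKM). Xist, expressed from the inactive X of females, was at 183.5, 505 and 174 RPKM in heterozygote, mutant and knock-in. The Y-linked gene Ddx3y was at 4.56, 0.0104 and 8.81 RPKM in the same order. The part of all these in the histone values was not tested. The sample titles carry one number for heterozygote and mutant samples and another for knock-in samples; should that number stand for a litter, litter and knock-in genotype cannot be told apart.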

How the data were processed

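Bowtie2, Cufflinks and Cuffdiff were used with mm10, per the submitters' processing notes, which list no versions. The authors deposited 1 table per comparison, with RPKM per assembled transcript and group, replicates pooled, and a p-value and q-value per transcript. Replicates are thus not separable, and the depth is unknown. Recomputed Benjamini-Hochberg values equalled the deposited q-values to within 5.26e-07. The tables hold 27311 and 26586 transcripts.

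A gene's RPKM is the sum over its transcripts, and among members Hist1h2be alone had 2. The p and q of a gene are the smallest over its transcripts. Beside a summed RPKM they may thus belong to 1 transcript. Genes outside the members can have several transcripts, so shares over all genes can rest on more chances per gene. Log2 ratios use no pseudocount. Rows with no symbol or a date in its place (173 and 172) were left out. Loci were shifted to start from base 1. Mutant values of members differed between the tables by -0.03 on the log2 scale (median of 49).

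Named members are those called, the 3 most abundant of each class, the 3 largest ratios each way of at least 1 RPKM, the 3 smallest p, and those in 1 table only; others named (pair partners, Hist1h2bc, Hist1h1c, Hist3h2ba) were added after their values were seen. Members and lists were chosen with earlier results of these data known. Features came from GENCODE M21 and RefSeq GRCm38.p6, with Python 3.11.15 and pandas 2.3.3. The calling steps were tested on simulated data.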

Additional observations from a re-analysis of the deposited data

How the results depend on the processing

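Of 66 alternative values, 60 stayed close: counts within 1.5 times, and log2 ratios with the same sign and a shift of less than a 1.5-fold change. That tolerance is wide beside small ratios. Without the most abundant gene of the class, H2A between knock-in and mutant went from -0.61 to -0.17, and between mutant and heterozygote H2B went from 0.05 to 0.21 and H3 from 0.32 to 0.62. The member median between mutant and heterozygote went from 0.19 to 0.13 with 1 RPKM added and to 0.03 over members with at most 50% of their coding words shared. Counts moved with the threshold. With an unadjusted p under 0.05 in place of q, 8 histone genes instead of 1 passed between mutant and heterozygote, and 16 instead of 5 between knock-in and mutant. At a q of 0.1 or less 8 passed in the latter. Restricted to members with at most 50% of their coding words shared with another gene, a choice made after the data were seen, the counts were 0 and 2 (fewer genes tested); the 2 are Hist1h1a and Hist1h4d. Without Hist1h1e, its most abundant gene, the summed H1 level had a log2 ratio of -0.32 in place of 0.13 between knock-in and mutant. No paired analysis was possible because the tables hold 1 pooled value per group, and for the same reason no replicate could be left out. RPKM without counts gives no interval for a single value, and ratios of members near 1 RPKM are the least certain.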
